A study of Rattus norvegicus with 2 samples.

Results

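Macrophages and other myeloid cells are described here through 39 gene names, matched to the gene column of the deposited table. The names were chosen for their known roles, with earlier results of these data known. Of these names, 31 matched, each to a single row, among 29516 gene rows in all. Averaged over the diets, 27 of the 31 reached 1 FPKM. FPKM scales fragment numbers by transcript length and library size, so levels of different genes can be set side by side on it. The names Csf2ra, Fcgr2b, Mrc1, Marco, Clec7a, Clec4a, Adgre1 and its older name Emr1 had no row under that spelling and were not analysed here. A row under Clecsf6, an older name of Clec4a in RefSeq, measured 2.55 FPKM under casein and 1.59 under soy and is not counted among the 31.

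The series holds kidney RNA of aged F344 rats, an inbred strain prone to chronic kidney disease in old age, and asks how soy in the diet bears on that disease. The control group ate a casein diet, casein being the main protein of milk, and the treated group ate a 14% soy diet. In both groups the rats came from an ageing colony at 16 months of age, were fed for 4 months and were 20 months old at sampling, and no genetic change is named for either. The labels give 1 library per diet, so no value below has a replicate and no test between the diets could be made. Sex, the number of rats behind a library and the part of the kidney taken are not stated in the sources used here. The FPKM values of all rows summed to 643145 with casein and 656248 with soy, and the number of reads behind them is unknown. Tubule markers were abundant under both diets, with 2842 and 3662 FPKM for the uromodulin gene Umod.

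The kidney holds a network of resident macrophages between its tubules, and circulating monocytes join them when tubules are injured. These cells live on signals through the receptor for colony-stimulating factor, take up dying cells and debris through scavenger and phosphatidylserine receptors, and bind antibody complexes through Fc receptors. The colony-stimulating factor receptor and some phosphatidylserine receptors are tyrosine kinases themselves. Trem2 and several activating Fc receptors instead pair with small adaptor proteins that carry an immunoreceptor tyrosine-based activation motif (ITAM), which Src-family kinases phosphorylate.

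Most myeloid genes had lower values in the soy library than in the casein library, by differing proportions. Of the 27 that averaged 1 FPKM or more, 21 were lower with soy by 1.5-fold or more, 0 were higher by that much, and 6 lay between these limits. Among all 14077 genes with such an average, 8.08% were lower and 3.43% higher by 1.5-fold or more. A log2 difference below 0 was seen in 26 of the 27 and in 47.2% of all genes. At a 2-fold limit 12 of the 27 were lower, against 3.59% of all genes. The counts use log2((soy FPKM + 0.1)/(casein FPKM + 0.1)), called the log2 difference below, which understates the difference of low genes, whereas folds are plain ratios of FPKM. The median log2 difference of the 27 was -0.83 and their middle 50% lay between -1.07 and -0.65, while all genes had a median of 0.01 and a middle 50% from -0.14 to 0.14. No gene passed the limit on the average through a high value under casein alone, since each of the 27 had at least 1.29 FPKM under both diets. In RNA from bulk tissue, fewer cells of a type and less RNA per cell cannot be told apart.

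**Figure D1:**
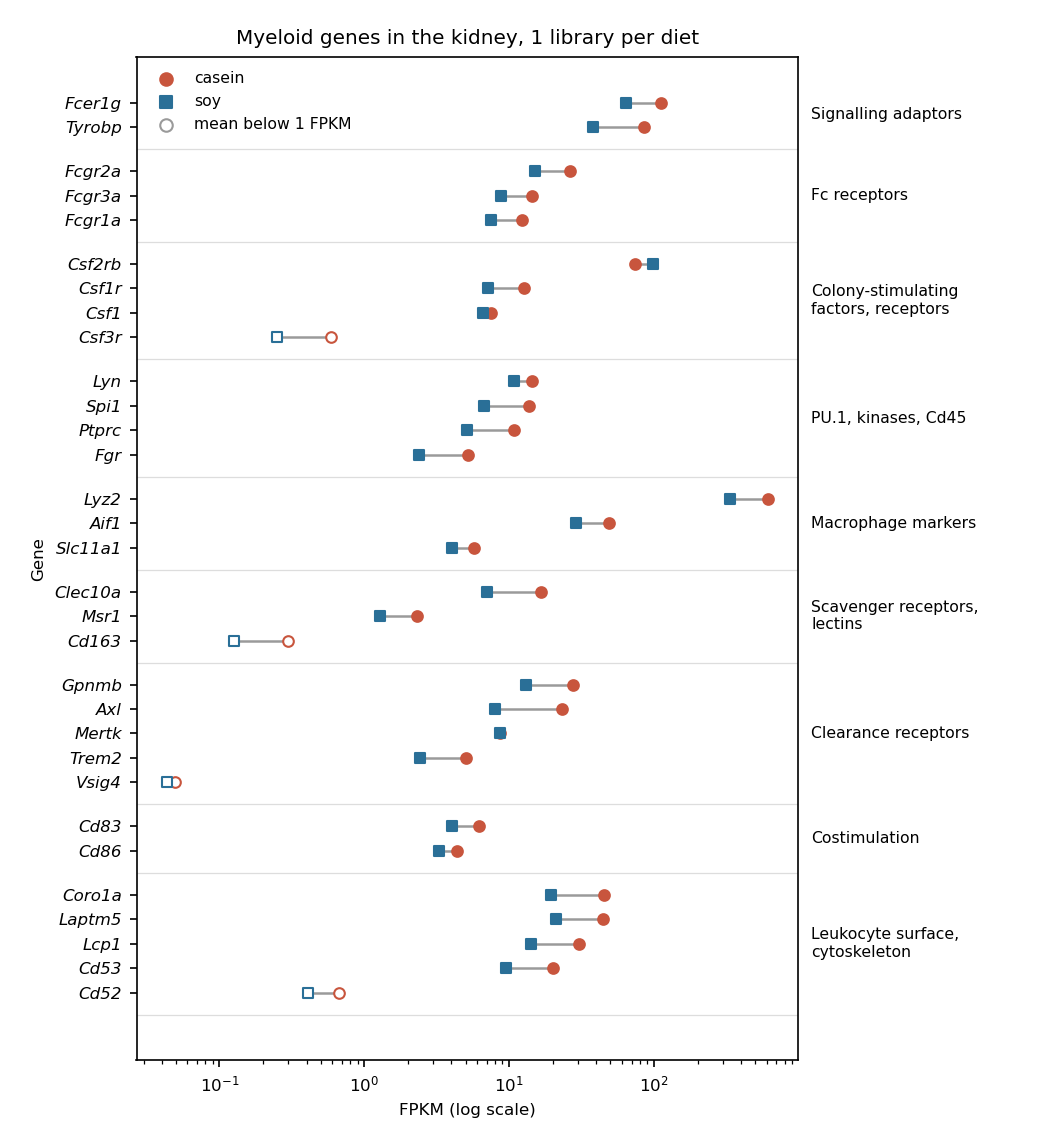
FPKM (log axis) of the 31 myeloid genes in the casein library (circles) and the soy library (squares), grouped by role, with open symbols for genes whose mean was below 1 FPKM. The square lies left of the circle for 30 of 31 genes, and Csf2rb is the exception.

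Lower values were found among weakly and strongly expressed myeloid genes alike. Their median mean level was 11.8 FPKM, next to 11.5 for all genes. Between 20 and 100 FPKM, where 2.90% of 3719 genes were at least 1.5-fold lower, 8 of 9 myeloid genes were. Between 5 and 20 FPKM the numbers were 9 of 12 myeloid genes and 5.89% of 5365 genes. Between 1 and 5 FPKM, where 17.7% of 3817 genes were lower, 3 of 5 myeloid genes were.

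**Figure D2:**
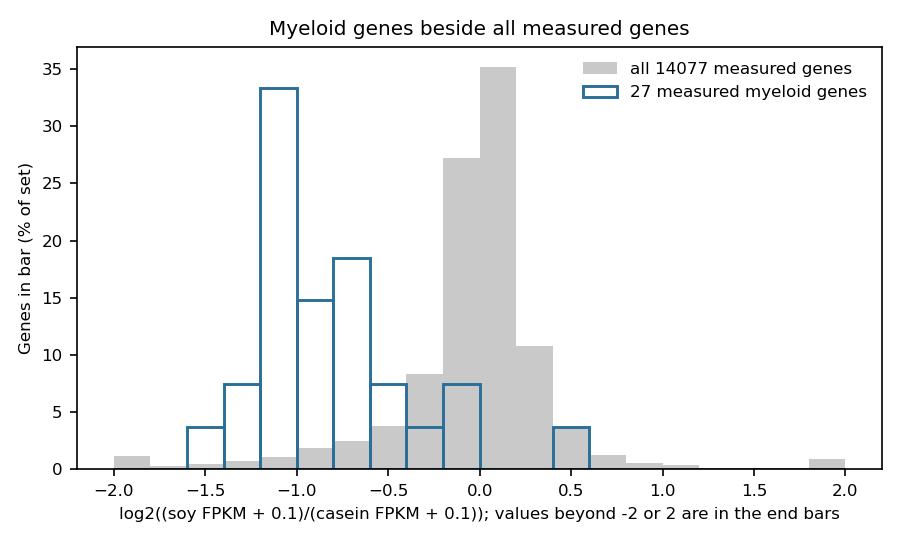
Share of genes (percent of each set) by log2 difference between diets, in bars of 0.2, with values beyond -2 or 2 put in the end bars, for all 14077 measured genes (grey) and the 27 measured myeloid genes (blue outline). The bar from -1.2 to -1 holds 33.3% of the myeloid genes and 1.07% of all genes.

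The adaptors that serve myeloid receptors were among the most abundant members. Fcer1g, which encodes the gamma chain shared by activating Fc receptors, had 111.5 FPKM in the casein library and 64.1 in the soy library, 1.74-fold lower. Tyrobp, whose product DAP12 carries the signal of Trem2 and related receptors, measured 85.2 FPKM under casein and 38.0 under soy, 2.24-fold lower. The ratio of Tyrobp to Fcer1g within a library, which does not depend on scaling between libraries, was 0.76 with casein and 0.59 with soy. So the adaptor of the Trem family was the lower of the pair under both diets and stood further below with soy. Tyrobp lies on chromosome 1 from 85365370 to 85369219 and Fcer1g on chromosome 13 from 87119465 to 87123902, as the deposited table gives positions, and its genome build is not stated in the sources used here.

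Fc receptors, which bind the constant part of IgG, were lower by similar proportions. Fcgr2a measured 26.4 FPKM under casein and 15.1 under soy. Fcgr3a, a low-affinity activating receptor, had 14.4 and 8.81 FPKM. Fcgr1a, the high-affinity receptor used as a macrophage marker, had 12.3 and 7.47 FPKM. The folds ran from 1.63 for Fcgr3a to 1.75 for Fcgr2a. Fcgr2a and Fcgr3a are listed at the same interval, chromosome 13 from 86809010 to 86949398, and are related in sequence, so fragments shared between them make the split between the pair uncertain. Their ratio was 1.83 with casein and 1.71 with soy.

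Genes of the growth factor axis differed from each other. Csf1r, the receptor on which macrophages depend, measured 12.8 FPKM under casein and 7.14 under soy, 1.79-fold lower. Csf1, which encodes its ligand and is made by tubular and stromal cells as well as leukocytes, had 7.48 and 6.65 FPKM, a log2 difference of -0.17. The ratio of Csf1 to its receptor transcript was therefore 0.59 with casein and 0.93 with soy. Il34 encodes the other ligand of this receptor and is made by tubular cells. It measured 48.6 FPKM under casein and 27.3 under soy, and its ratio to Csf1r was 3.81 and 3.83. Of the 2 ligands, Il34 thus stood at nearly the same proportion to the receptor under both diets and Csf1 did not.

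Csf2rb was the only one of the 31 with a higher value in the soy library. It encodes the beta chain shared by receptors for granulocyte-macrophage colony-stimulating factor and related interleukins. Its level was 73.5 FPKM with casein and 98.9 with soy, 1.35-fold higher, a log2 difference of 0.43 that exceeded 93.8% of all measured genes. It was also more abundant than most members, at 5.77 times the level of Csf1r with casein and 13.9 times with soy. The row spans chromosome 7 from 116237278 to 116271993 and shares its interval with no other row of the table. The authors' deposited table does not call it, with q = 0.927. Csf3r, the receptor for granulocyte colony-stimulating factor, was low, at 0.589 FPKM with casein and 0.251 with soy.

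Spi1, Ptprc, Fgr and Lyn stand for the lineage and its proximal signalling. Spi1, which encodes the transcription factor that specifies myeloid cells, measured 13.6 FPKM under casein and 6.66 under soy, 2.05-fold lower. Ptprc, which encodes CD45, the tyrosine phosphatase on nearly all white blood cells, had 10.8 and 5.15 FPKM, 2.09-fold lower. The 2 genes kept almost the same proportion to each other, with a Spi1 to Ptprc ratio of 1.27 with casein and 1.29 with soy. Src-family kinases differed from each other. Fgr, which is largely confined to myeloid cells, had 5.21 and 2.38 FPKM, 2.19-fold lower, and Lyn, which is expressed more widely, had 14.3 and 10.9 FPKM, 1.31-fold lower. Their ratio, Fgr to Lyn, was 0.365 with casein and 0.219 with soy. The Fgr row shares its interval with Ahdc1, which had 7.32 and 8.41 FPKM.

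The product of Spi1 binds purine-rich DNA with the core GAGGAA, and many myeloid promoters lack a TATA box and rely on such sites. RefSeq promoter sequences on the rat build GRCr8, running from 250 bases before to 50 bases after each gene start, were matched by symbol for 19 of the 31 genes. GAGGAA on either strand was found in 12 of these 19 (63.2%), against 28.7% of 19005 protein-coding genes in the same table and 28.0% of the 7068 that were measured here. TGANTCA, the site of AP-1 factors, which is its own reverse complement, was found in 3 of 19 (15.8%), in 7.15% of all and in 5.33% of the measured ones. The GC content was 55.0% in the promoters of these 19 genes, 54.9% in all and 60.6% in those of measured genes. Below are the 250 bases before the start for 3 leukocyte genes called in the authors' deposited table and for Trem2 and Lyz2, shown because each holds the core. Each is written 5′ to 3′ on the strand of the gene, with GAGGAA or its reverse complement TTCCTC in capitals.
Cd53 (chr2:197087897-197088146, minus strand): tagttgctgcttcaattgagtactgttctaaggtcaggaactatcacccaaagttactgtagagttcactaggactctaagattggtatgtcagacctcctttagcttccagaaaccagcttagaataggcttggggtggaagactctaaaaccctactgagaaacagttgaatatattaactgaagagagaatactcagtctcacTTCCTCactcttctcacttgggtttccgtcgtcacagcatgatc
Laptm5 (chr5:148371630-148371879, plus strand): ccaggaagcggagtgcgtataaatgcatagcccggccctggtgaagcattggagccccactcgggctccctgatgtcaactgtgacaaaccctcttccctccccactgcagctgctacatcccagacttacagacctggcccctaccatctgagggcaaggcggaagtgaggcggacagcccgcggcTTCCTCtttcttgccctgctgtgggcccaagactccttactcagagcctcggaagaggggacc
Ptprc (chr13:52259747-52259996, minus strand): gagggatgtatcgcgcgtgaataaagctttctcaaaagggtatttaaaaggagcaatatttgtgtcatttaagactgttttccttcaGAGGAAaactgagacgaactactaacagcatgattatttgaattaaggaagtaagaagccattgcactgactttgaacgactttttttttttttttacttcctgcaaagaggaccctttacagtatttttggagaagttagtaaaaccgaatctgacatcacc
Trem2 (chr9:20151780-20152029, minus strand): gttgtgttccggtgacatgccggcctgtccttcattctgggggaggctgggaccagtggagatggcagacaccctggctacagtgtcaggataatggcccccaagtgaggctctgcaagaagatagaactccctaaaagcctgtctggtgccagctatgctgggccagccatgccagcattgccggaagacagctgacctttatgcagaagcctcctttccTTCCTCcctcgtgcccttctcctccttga
Lyz2 (chr7:54798012-54798261, minus strand): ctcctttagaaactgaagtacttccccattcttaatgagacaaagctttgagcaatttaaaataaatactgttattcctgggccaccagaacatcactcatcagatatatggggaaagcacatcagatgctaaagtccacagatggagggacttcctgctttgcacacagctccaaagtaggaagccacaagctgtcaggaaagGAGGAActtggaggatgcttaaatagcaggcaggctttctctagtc

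In these windows the capitals begin 29 bases before the start in Trem2, 44 in Cd53, 46 in Lyz2, 63 in Laptm5 and 163 in Ptprc. A match of 6 letters is a description of the sequence and does not show binding, and no binding was measured in this series.

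Macrophage markers in the narrow sense were lower as well. Lyz2, which encodes the lysozyme secreted by macrophages, was by far the most abundant member, with 611 FPKM in the casein library and 334 in the soy library, 1.83-fold lower. It made up a large part of the FPKM summed over the 31 genes, which was 1288 with casein and 751 with soy, or 677 and 417 without Lyz2. Aif1, which encodes the calcium-binding protein IBA1, had 48.8 and 28.8 FPKM, 1.69-fold lower. Their ratio, Lyz2 to Aif1, was 12.5 with casein and 11.6 with soy. Slc11a1, a metal transporter of the phagosome membrane, had 5.69 and 4.02 FPKM, 1.41-fold lower, and was the nearest gene outside the 1.5-fold limit. Aif1 is listed at an interval of chromosome 20 from 3499166 to 3842473 that 32 other rows share, in the gene-dense major histocompatibility region. The authors' deposited table gives Aif1 q = 0.999991, and gives Fcer1g, whose fold was close to that of Aif1, q = 0.104.

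Scavenger receptors and lectins could be followed only in part. Clec10a, a galactose-binding lectin of macrophages and dendritic cells, measured 16.6 FPKM under casein and 7.06 under soy, 2.35-fold lower. Msr1, a scavenger receptor for modified lipoproteins, had 2.32 and 1.29 FPKM, 1.80-fold lower. Cd163, the haemoglobin scavenger receptor of resident macrophages, stayed low at 0.296 and 0.127 FPKM. All 3 had lower values with soy, and the low level of Cd163 makes its value the least certain of them.

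Receptors for the clearance of dying cells and lipid spread the widest of the role groups within the 31 genes, from -1.51 to -0.01 in log2 difference among those measured. Axl, a receptor tyrosine kinase that recognises phosphatidylserine through the bridging protein Gas6, had the lowest log2 difference of all members. Its level was 23.1 FPKM under casein and 8.05 under soy, 2.87-fold lower, and only 1.48% of measured genes had a lower log2 difference. Mertk, a related receptor that uses the same bridging protein, had 8.65 and 8.59 FPKM. The ratio of Axl to Mertk was thus 2.67 in the casein library and 0.94 in the soy library. Axl was the more abundant of the pair with casein, and both stood at nearly the same level with soy. Gas6, singled out after its values were seen, had 152.4 and 138.4 FPKM, and the remaining receptor of this family, Tyro3, singled out likewise, had 11.5 and 12.5. Axl and Mertk are not restricted to macrophages, since endothelial, mesangial and other kidney cells can express them.

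Trem2, a lipid-sensing receptor that signals through Tyrobp, measured 5.04 FPKM under casein and 2.44 under soy, 2.07-fold lower. It kept its proportion to the adaptor, with a Tyrobp to Trem2 ratio of 16.9 and 15.6. Gpnmb, a glycoprotein of lipid-laden and phagocytic macrophages, had 27.5 and 13.2 FPKM, 2.09-fold lower. Vsig4, a complement receptor of resident macrophages, had 0.049 and 0.043 FPKM, too low to follow. Apart from Mertk and Vsig4, each clearance receptor was at least 2.07-fold lower with soy.

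Costimulatory molecules of antigen-presenting cells differed less. Cd83, a marker of mature dendritic cells, measured 6.196 FPKM under casein and 4.03 under soy, a log2 difference of -0.61 that lay just past the 1.5-fold limit. Cd86, the ligand of CD28 on T cells, had 4.35 and 3.26 FPKM, 1.33-fold lower. Its row shares an interval with 10 others on chromosome 11.

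Surface and cytoskeletal genes of leukocytes in general formed a tight group, with folds from 2.10 to 2.32 among the 4 measured. Coro1a, an actin regulator of the phagocytic cup, measured 45.1 FPKM under casein and 19.5 under soy, 2.32-fold lower. Lcp1, the leukocyte plastin that bundles actin, had 30.2 and 14.1 FPKM, 2.14-fold lower. Laptm5, a lysosomal membrane protein of blood cells, had 44.2 and 20.9 FPKM, 2.11-fold lower. These 3 are not specific to macrophages, since lymphocytes express them too. The tetraspanin gene Cd53, another leukocyte gene, had 20.1 and 9.54 FPKM, 2.10-fold lower. Cd52 was low, at 0.670 and 0.411 FPKM.

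**Figure D3:**
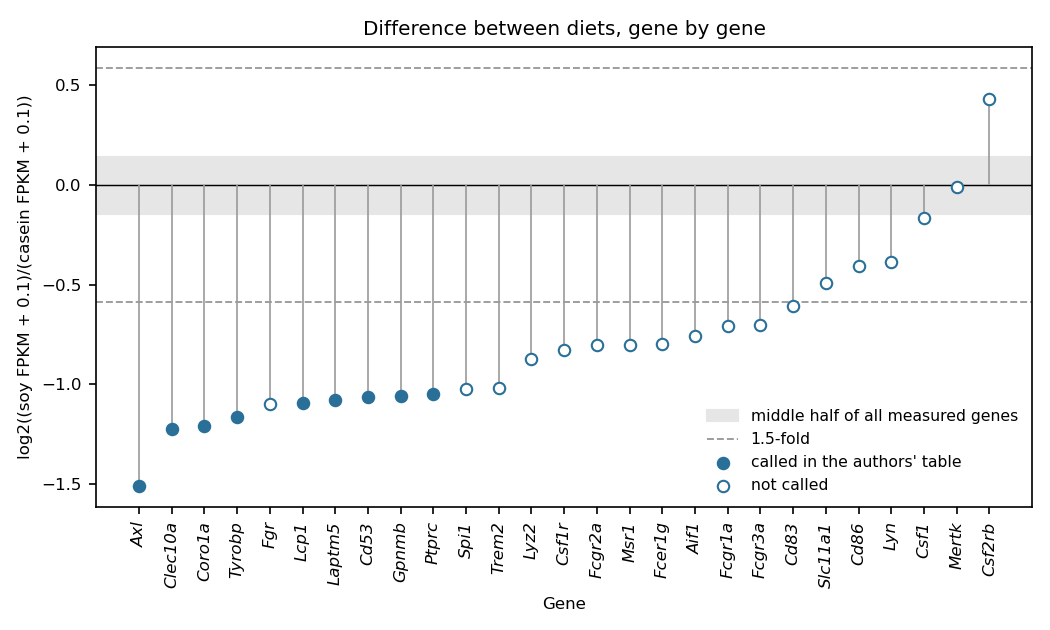
Log2 difference between diets for the 27 measured myeloid genes, ordered from lowest to highest, with filled points for genes called in the authors' deposited table. Values run from -1.51 for Axl to 0.43 for Csf2rb, and the shaded band from -0.14 to 0.14 holds the middle 50% of all measured genes.

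Members were also set against Ptprc, the general leukocyte gene. The log2 difference of 22 of the 27 measured genes, Ptprc included, lay within 1.5-fold of that of Ptprc, and 0 lay further below it. That range is wide, as it holds both Slc11a1, 1.41-fold lower with soy, and Axl, 2.87-fold lower. The share of all measured genes within it was not counted. It is below 11.6%, the share of all measured genes with a lower log2 difference than Cd86, which lay above the range. The 5 that lay further above were Cd86, Lyn, Csf1, Mertk and Csf2rb, in ascending order. Cd86 and Lyn were nearest to the limit, at 0.64 and 0.66 above Ptprc on the log2 scale, and Csf2rb was the furthest, at 1.48.

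The authors' deposited table calls 9 of the 30 myeloid genes with status OK lower with soy and 0 higher, against 0.745% called lower and 0.103% called higher among 17450 genes with that status. In order of q in the authors' deposited table these were Axl (q = 0.000366), Coro1a (q = 0.000602), Lcp1 (q = 0.00098), Laptm5 (q = 0.0022), Gpnmb (q = 0.00541), Ptprc (q = 0.00846), Clec10a (q = 0.0207), Tyrobp (q = 0.0224) and Cd53 (q = 0.0308). Next came Csf1r, with q = 0.0926 in the authors' deposited table. Lyz2 (q = 0.178) and Spi1 (q = 0.206) were not called there either. How many libraries entered that test is not stated in the sources used here, so a low q cannot stand in for replicate rats.

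The authors' deposited table of 145 transcripts holds 9 from the myeloid genes, 1 for each gene called. For 7 of them the values equal those of the gene within a relative tolerance of 1e-06. The listed Axl transcript measured 16.5 FPKM under casein and 6.29 under soy, below the gene totals of 23.1 and 8.05, and the listed Ptprc transcript had 9.74 and 4.67 FPKM against 10.8 and 5.15 for the gene. In both cases the listed transcript carried most of the gene's level under each diet.

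Other genes of the same pathways had lower values too, in lists chosen for their roles with earlier results of these data known. In 3 such lists, 51 genes were measured, with a median log2 difference of -0.81. Of these, 32 were lower with soy by 1.5-fold or more and 0 higher, against 8.08% and 3.43% of all measured genes. Of 12 genes of ITAM signalling, 8 were at least 1.5-fold lower. Rac2, a GTPase of the phagocyte oxidase, measured 32.1 FPKM under casein and 13.8 under soy. Of 30 further macrophage and monocyte genes, 20 were at least 1.5-fold lower. The integrin gene Itgam, which encodes CD11b, had 2.14 and 0.83 FPKM. Irf8, a transcription factor of monocytes and dendritic cells, had 14.4 and 6.01. Itgam and Itgax (2.73 and 0.92 FPKM) averaged 1 FPKM only through their casein values, so both must have lower values with soy. The set of ligands and partners was more mixed, with 4 of 9 genes lower by at least 1.5-fold, and 2 with a log2 difference above 0. Hcst, which encodes the adaptor DAP10, had 12.6 and 4.45 FPKM, and Sirpa, an inhibitory receptor of macrophages, had 18.6 and 10.1. Genes of these lists, Hcst among them, need not be confined to myeloid cells, and the part of lymphocytes in their lower values was not tested. Across these lists, 5 of the 60 genes with status OK are called in the authors' deposited table, each of them lower with soy. Among all genes with that status, 0.745% are called lower and 0.103% higher.

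Markers of other leukocytes were lower alongside, set here beside the 8.08% of all measured genes that were at least 1.5-fold lower with soy. Of 12 measured T cell genes, 10 were at least 1.5-fold lower, with a median log2 difference of -1.002, and the FPKM summed over the 13 T cell genes found was 85.5 with casein and 41.7 with soy. The 7 measured genes of natural killer and cytotoxic cells were all at least 1.5-fold lower, with a median of -1.47, and their 9 rows summed to 42.0 and 13.3 FPKM. The granzyme gene Gzma had 5.89 and 1.53 FPKM. Tbx21 (2.09 and 0.90 FPKM) and Klrd1 (1.78 and 0.95 FPKM) averaged 1 FPKM only through their casein values. Genes that pass in this way must have lower values with soy. Among 4 measured B cell genes 3 were at least 1.5-fold lower, with a median of -1.20, and the 9 B cell rows summed to 25.9 and 12.9 FPKM. Sdc1, the measured gene that was not lower by that much, was the largest part of that sum, at 9.08 and 6.71 FPKM. Cd79b, at 2.34 and 0.82 FPKM, averaged 1 FPKM only through its casein value. None of the T, cytotoxic or B cell genes found was at 0 under both diets. Several members, such as Ptprc, Coro1a, Cd53 and Laptm5, are expressed by these cells as well, and the part of lymphocytes in their lower values was not tested.

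Lists for the kidney's own cells were small, and their counts stand beside the 8.08% of all measured genes at least 1.5-fold lower with soy. Of 9 endothelial genes 0 were at least 1.5-fold lower, with a median log2 difference of 0.14. Of 10 proximal tubule genes 1 was, with a median of 0.27, and of 9 distal tubule and collecting duct genes 1 was, with a median of 0.19. The lower tubule genes were Slc5a2, the glucose cotransporter of the early proximal tubule, at 21.8 and 10.7 FPKM, and the calcium-binding protein gene Calb1, at 186 and 102 FPKM. Fibroblast and pericyte genes lay between, with 1 of 7 at least 1.5-fold lower, the desmin gene Des at 14.1 and 7.47 FPKM, and a median of -0.20. At least 1.5-fold higher with soy, as were 3.43% of all measured genes, was 1 endothelial gene, Vwf, at 7.33 and 11.5 FPKM. So was 1 proximal tubule gene, the endocytic receptor gene Lrp2, at 15.9 and 24.7. None of the 11 housekeeping genes was at least 1.5-fold lower, and their median was -0.05.

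**Figure D4:**
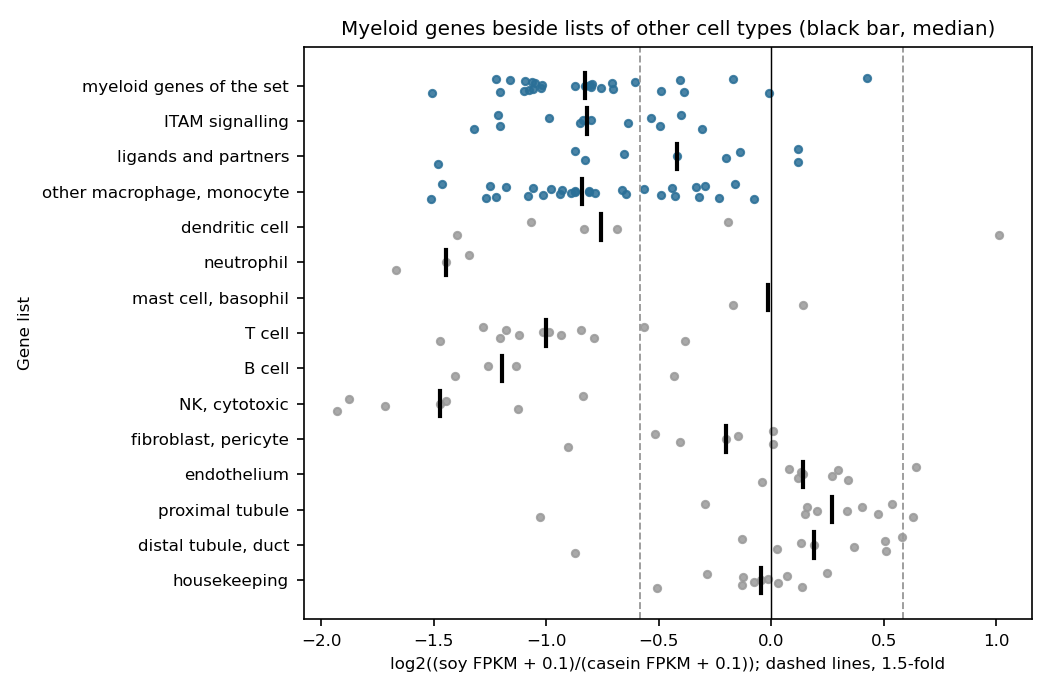
Log2 difference between diets for each measured gene of the myeloid set, of 3 further myeloid lists (blue) and of lists for other cell types and housekeeping genes (grey), with the median of each list as a black bar. The median is -0.83 for the myeloid set, -1.002 for T cells, 0.14 for endothelium and -0.05 for housekeeping genes.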

How the data were processed

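Kidney RNA of casein-fed and soy-fed rats was made into TruSeq libraries, per the labels' protocols, with 1 library per diet. Bowtie, TopHat and Cufflinks are named in the submitters' processing notes, with no version. The FPKM values, p-values and q-values per gene were deposited by the authors, per the file headers, and the genome build, annotation and filters are not stated in the sources used here. A second deposited table lists transcripts marked significant.

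Members were matched by exact symbol. Genes counted as measured averaged 1 FPKM or more across the diets. The log2 difference was log2((soy FPKM + 0.1)/(casein FPKM + 0.1)), and lower means at least 1.5-fold on that scale. Read depth is unknown, so no interval is given, and without replicates no test of the diets was run. The members and lists were chosen with earlier results of these data known, so their counts are descriptions. Every matched member is named. Other lists are represented by up to 4 genes with the largest differences and by genes that go against their list. Some genes that this rule names are not reported here. Promoters came from RefSeq on GRCr8, and no protein sequences were used here. The counting of lower and higher genes was tested on simulated data with exact folds and no noise, which checks the counting alone. Alternatives were pseudocounts of 0.01 and 1, other limits on the mean, centring, status OK only, a 2-fold limit and other q limits. Scripts ran in Python 3.11.15 with pandas 2.3.3, numpy 2.4.6 and, for plots, matplotlib 3.10.9.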

Additional observations from a re-analysis of the deposited data

How the results depend on the processing

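The median log2 difference of the measured myeloid genes stayed between -0.84 and -0.78 under other pseudocounts and under centring on housekeeping genes or on all genes. All 27 have status OK, so a limit to that status leaves the same set and could not change the result. It was -0.80 with no limit on low values (31 genes) and -0.85 among the 22 genes averaging 5 FPKM or more. The count at least 1.5-fold lower was again 21 of 27 with a pseudocount of 0.01 or centring on all genes. It was 20 of 27 with housekeeping centring and 19 of 27 with a pseudocount of 1. It was 18 of 22 for averages of 5 FPKM or more, 24 of 31 with no limit on low values and 12 of 27 at a 2-fold limit. Among the other myeloid genes, 32 of 51, the count was 13 at a 2-fold limit and 21 of 37 for averages of 5 FPKM or more, where fewer genes are counted. Calls in the authors' deposited table were 9, and were 6 at q up to 0.01 and 10 at q up to 0.1. With a pseudocount of 1, 4 of the 27 single values moved by at least 0.1 on the log2 scale, and 0 did under the smaller pseudocount. Centring subtracts the same constant from every gene, 0.013 for all genes and -0.045 for housekeeping genes. Both constants are smaller than that step, so centring could not move any value by that much. No paired analysis was possible because each diet has 1 library. With no replicates and an unknown read depth, the precision of a single value cannot be given, and the lowest genes are the least certain.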

Other observations

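Other granulocyte and dendritic lists were small, and their counts stand beside 8.08% of all measured genes at least 1.5-fold lower with soy. Of 10 neutrophil genes, 3 were measured, S100a8, S100a9 and Lcn2, and all were at least 1.5-fold lower with soy, with 3.50 FPKM under casein and 1.03 under soy for S100a9. S100a8, at 2.42 and 0.83 FPKM, averaged 1 FPKM only through its casein value. Lcn2 is also made by injured tubules, and the granule genes Mpo and Elane were listed at or near 0 under both diets. Of 6 measured dendritic cell genes, 4 were at least 1.5-fold lower, among them Flt3, the receptor that sustains dendritic cells, at 3.09 and 1.42 FPKM, and Ccr7, the receptor that guides them to lymph nodes, at 1.53 and 0.52. The C-type lectin gene Cd209a went the other way, at 1.39 FPKM with casein and 2.91 with soy. Ccr7 averaged 1 FPKM only through its casein value. The 2 measured genes of the mast cell and basophil list, Kit and Gata2, differed little (6.80 and 6.04 FPKM, and 7.05 and 7.78). Gata2 is also expressed by endothelial cells, and the mast cell protease genes Cpa3 and Mcpt1 were listed at or near 0 under both diets. Another mast cell protease gene, Mcpt2, was low as well, at 0.653 FPKM with casein and 0.172 with soy.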
